A study of Homo sapiens with 6 samples.

Results

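The Ikaros family comprises 5 genes, IKZF1 to IKZF5, and all 5 were taken by name from a table of 58884 genes measured in HL-60 cells. HL-60 is an established, RAS-mutated cell line from an acute myeloid leukemia and has the look of promyelocytes. The comparison set 3 libraries with a short hairpin RNA (shRNA) against EZH2, numbered 1, 3 and 4, against 3 libraries with a scrambled control shRNA, numbered 3, 4 and 5. EZH2 is the enzyme of Polycomb complex PRC2 that methylates histone H3 and so keeps genes silent. Both kinds of cells had received a lentiviral hairpin vector, had been selected with puromycin and then freed of the drug, and were held for 24 hours in 0.05% serum before polyadenylated RNA was sequenced. The labels describe a stable knockdown, while the design text counts 3 knock-out lines and 3 control lines. Neither says whether each line had its own transduction or was a clone, so p-values speak of these libraries alone, and their spread may be technical in part. Values per library are listed throughout in the order control 3, 4, 5 and EZH2 1, 3, 4. In a bulk sample, fewer cells that express a gene and less RNA per cell cannot be told apart.

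The family consists of zinc finger transcription factors. Fingers near the amino end bind DNA, in most members with a GGGA core. A pair of fingers at the carboxyl end joins members into homodimers and heterodimers, so that the mix of members in a cell shapes the complexes formed. Ikaros (IKZF1) acts throughout blood cell development and recruits the nucleosome remodelling and deacetylase complex NuRD. Helios (IKZF2) is best known from T cells and from blood stem cells, Aiolos (IKZF3) from maturing B cells, and Eos (IKZF4) from regulatory T cells. Pegasus (IKZF5) is the most divergent member and is broadly expressed. Ikaros and Aiolos are also the proteins that lenalidomide and its relatives direct to the cereblon ubiquitin ligase for destruction.

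The members were chosen by family name and by their counts in this very comparison: IKZF3, which comes up from near silence, was to be set against its paralogs. The differences of the 5 members are therefore given as a description, with standard errors (SE) and no p-value. IKZF3 mRNA went from 1, 3 and 1 counts with control shRNA to 300, 284 and 542 counts with EZH2 shRNA. IKZF2 mRNA was 3.39 times as high with EZH2 shRNA on the FPKM scale, which corrects for depth and gene length. IKZF1, the most abundant member, IKZF4 and IKZF5 stayed within 0.12 log2 units of the control level. By the rule used for all genes, an adjusted p under 0.05, 2 of the 5 members were higher and 0 lower, and that rule called 23.8% of the 16859 genes tested higher and 22.9% lower. The groups did not overlap for 4 of the 5 members, against 54.9% of all genes tested. The median log2 fold change was 0.09 over the members and 0.01 over all genes tested.

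EZH2 itself checked the labels. Its mRNA was at 149.5 ± 1.61 CPM (counts scaled to library depth; mean ± SD, n = 3 here and below) with control shRNA and at 79.98 ± 3.01 CPM with EZH2 shRNA, which is 53.5% of the control level. Total counts lay between 39717343 and 85074624 per library, and EZH2 library 4 was the deepest. A count of 0 allows up to 3 counts, which is between 0.0353 and 0.0759 CPM per library. Such floors, and the counting intervals below, cover counting error only. In all, 46.7% of the genes tested were called. Myeloid markers were present: MPO (myeloperoxidase) was at 9795 CPM in the controls and 9416 CPM with EZH2 shRNA, and ELANE (neutrophil elastase) was almost absent, with 0 to 12 counts per library. Of 9 tested markers 4 were higher and 1 lower (over all genes 23.8% higher and 22.9% lower). PRTN3 (proteinase 3), AZU1 (azurocidin), CEBPA and CEBPE rose by 2.14, 0.69, 0.49 and 0.38 on the log2 scale (edgeR adjusted p = 1.55e-08, 1.93e-08, 1.03e-07 and 6.13e-07). CTSG (cathepsin G) fell by 0.22 (edgeR adjusted p = 0.000305).

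The start regions of the members differ in their content of CG dinucleotides, the sites of DNA methylation that are dense at many Polycomb-bound starts. RefSeq's promoter table (GRCh38.p14) held 10 windows for 4 members, each from 250 bases before to 50 bases after a start site. IKZF3 has no entry there. Both IKZF2 windows and the outermost IKZF1 window are shown because IKZF2 was the other member that was higher, whereas IKZF1 was the most abundant one. Sequences run 5′ to 3′ on the gene's strand, and capitals mark CG.
IKZF2, chr2:213152407-213152706, minus strand: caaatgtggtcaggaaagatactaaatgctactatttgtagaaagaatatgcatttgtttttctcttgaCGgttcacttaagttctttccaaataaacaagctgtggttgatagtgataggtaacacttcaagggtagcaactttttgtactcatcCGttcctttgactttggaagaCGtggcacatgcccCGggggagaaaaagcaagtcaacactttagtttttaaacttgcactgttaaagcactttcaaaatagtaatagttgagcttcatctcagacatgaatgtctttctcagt
IKZF2, chr2:213150388-213150687, minus strand: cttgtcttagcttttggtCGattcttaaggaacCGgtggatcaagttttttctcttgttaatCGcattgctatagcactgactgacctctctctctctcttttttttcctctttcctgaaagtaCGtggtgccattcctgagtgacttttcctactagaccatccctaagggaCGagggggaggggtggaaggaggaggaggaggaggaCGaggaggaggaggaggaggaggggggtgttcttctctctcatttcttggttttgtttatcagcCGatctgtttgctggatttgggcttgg
IKZF1, chr7:50304466-50304765, plus strand: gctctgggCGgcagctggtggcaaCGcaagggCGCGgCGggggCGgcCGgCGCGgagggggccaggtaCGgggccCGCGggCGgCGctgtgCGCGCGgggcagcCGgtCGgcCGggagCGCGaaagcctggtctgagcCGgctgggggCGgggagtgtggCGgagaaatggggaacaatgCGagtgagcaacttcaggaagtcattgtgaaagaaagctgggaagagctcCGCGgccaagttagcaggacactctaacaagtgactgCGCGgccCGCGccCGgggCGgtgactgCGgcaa
The upper IKZF2 window holds 4 CG dinucleotides and has a GC content of 37.3%. The lower one, whose start site lies 1990 bases inside the deposited gene span, holds 7. The IKZF1 window holds 35 and has a GC content of 71%. Over the 35116 windows of the table the median was 14, so IKZF2 lay below it and this IKZF1 window above. The outermost windows of IKZF4 and IKZF5 held 19 and 23. Internal IKZF1 windows held 3 and 0, internal IKZF4 windows 6 and 3, and the other IKZF5 window 28. A match to TGGGAA, which holds the GGGA core bound by most members, was found in 1 of the 10 windows, that IKZF1 window. Over all windows 24% had a match on either strand.

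**Figure D1:**
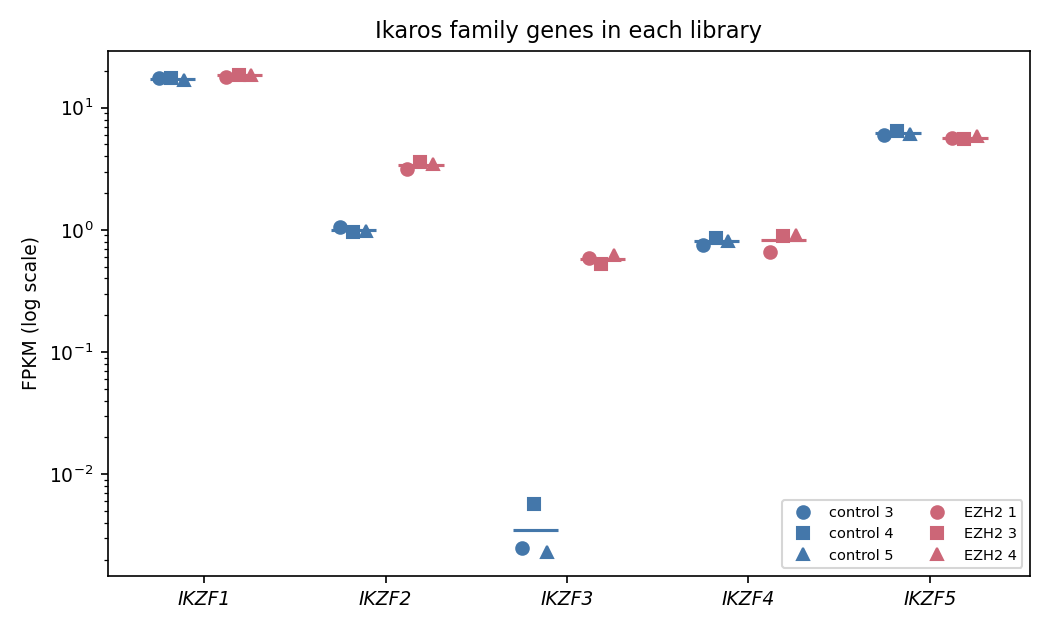
FPKM of the 5 Ikaros family genes in each library on a log axis, with 1 point per library and a line at each group mean (control shRNA in blue, EZH2 shRNA in red). IKZF3 lies between 0.0023 and 0.0057 in the controls and between 0.521 and 0.625 with EZH2 shRNA, IKZF2 is higher by about 3.39 times, and the other 3 genes lie close together in both groups.

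IKZF3 (ENSG00000161405; GRCh38 chromosome 17, 39757718 to 39864312, minus strand, protein-coding) encodes Aiolos. It was at 0.0253, 0.0576 and 0.0236 CPM with control shRNA and at 6.03, 5.30 and 6.38 CPM with EZH2 shRNA. No control library had more counts than the floor of 3, and the lowest EZH2 shRNA library was far above the highest control library. The 5 control counts and 1126 EZH2 shRNA counts gave a ratio of 160.4 (exact 95% counting interval 68.5 to 494.8). The fitted log2 fold change was 7.22 (SE 0.27). It was 7.79 without control library 4, which held 3 of the 5 control counts, and 7.08 with the chromosome median removed. IKZF3 passed the expression filter through the EZH2 shRNA libraries alone, with 1, 3 and 1 control counts against 300, 284 and 542. At 1 CPM, the level of an alternative filter, 0 control libraries and 3 EZH2 shRNA libraries passed. Its fold change ranked 4 from the top of the 16859 genes. That rank depends on control counts near 0. TRPS1, with 0 control counts and a mean of only 0.498 CPM with EZH2 shRNA, ranked above it at 7.74.

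IKZF2 (ENSG00000030419; chromosome 2, 212999691 to 213152427, minus strand) encodes Helios and, unlike IKZF3, was well expressed in the controls. Its FPKM was 1.06, 0.967 and 0.986 with control shRNA and 3.17, 3.59 and 3.44 with EZH2 shRNA. All 3 EZH2 shRNA libraries were above all controls, and the lowest of them exceeded the highest control library by 202% in CPM. The fitted log2 fold change was 1.77 (SE 0.06). Genes of chromosome 2 were lower as a whole, with a median log2 fold change of -0.30, 8.96% called higher and 49.5% called lower. With the median of each chromosome removed IKZF2 was at 2.07, so IKZF2 lay opposite to the median of its chromosome.

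IKZF1 (ENSG00000185811; chromosome 7, 50304068 to 50405101, plus strand) encodes Ikaros. Its FPKM was 17.4, 17.6 and 16.9 with control shRNA and 17.8, 18.5 and 18.6 with EZH2 shRNA. The groups did not overlap, yet the lowest EZH2 shRNA library was only 2.06% above the highest control library in CPM. The fitted log2 fold change was 0.09 (SE 0.04), and it was 0.046 with the chromosome median removed. Counts are per gene, so Ikaros isoforms that lack DNA-binding fingers were not separated from the full-length form.

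IKZF4 (ENSG00000123411; chromosome 12, 56007659 to 56038435, plus strand) encodes Eos. Its FPKM was 0.751, 0.853 and 0.810 with control shRNA and 0.657, 0.897 and 0.904 with EZH2 shRNA. EZH2 library 1 lay below all controls and the other 2 above them, so the groups overlapped. The fitted log2 fold change of 0.04 was smaller than its SE of 0.12, and its sign turned without control library 3 (-0.0098), EZH2 library 3 (-0.034) or EZH2 library 4 (-0.044). Without EZH2 library 1 it was 0.16.

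IKZF5 (ENSG00000095574; chromosome 10, 122990806 to 123008817, minus strand) encodes Pegasus. Its FPKM was 5.99, 6.50 and 6.08 with control shRNA and 5.61, 5.57 and 5.85 with EZH2 shRNA. All EZH2 shRNA libraries were below all controls, by a small margin. The fitted log2 fold change was -0.12 (SE 0.06). Without control library 4, the highest library, it was -0.079.

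Overlapping genes bear on the counts of 2 members. AC090844.1, a processed pseudogene inside IKZF3 on the same strand, had 1, 2 and 1 counts with control shRNA, close to the 1, 3 and 1 of IKZF3, and 0, 2 and 3 with EZH2 shRNA. Whether those reads, or the control counts of IKZF3, came from the one or the other cannot be told apart. IKZF5 shares 6708 bases with PSTK on the other strand, a gene at 5.92 CPM in the controls and 8.80 CPM with EZH2 shRNA, and the labels name a stranded library kit but no strand setting for the counting. Reads of the shared stretch may therefore belong to either gene. The other genes that overlap members had 0 or 1 count in each library. They were AC124014.1 in IKZF1, AC093865.1 in IKZF2, KRT8P34 in IKZF3, and AC034102.3 and AC034102.8 in IKZF4.

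On the FPKM scale, which allows levels to be compared between genes, the order in the controls was IKZF1, IKZF5, IKZF2, IKZF4 and IKZF3, with means of 17.3, 6.19, 1.004, 0.805 and 0.0035. The ranges of neighbours in that order did not overlap. The order with EZH2 shRNA was the same, with means of 18.3, 5.68, 3.40, 0.819 and 0.578. There the gap between IKZF4 (lowest library 0.657) and IKZF3 (highest library 0.625) was smaller than the SD of IKZF4, which was 0.140. On this scale IKZF3 was the least abundant member in both groups, and with EZH2 shRNA it came close to IKZF4. The order of IKZF3 and IKZF4 there depends on the gene lengths used for FPKM, 10129 and 6813 bases. In CPM, which is not corrected for length, IKZF3 had the higher mean with EZH2 shRNA, 5.90 against 5.62. The ranges of the libraries overlapped in CPM, at 5.30 to 6.38 for IKZF3 and 4.52 to 6.21 for IKZF4.

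The make-up of the family mRNA moved accordingly. IKZF3 held 0.0137 ± 0.0071% of the summed family FPKM in the controls and 2.01 ± 0.19% with EZH2 shRNA. IKZF2 held 3.97 ± 0.24% and 11.8 ± 0.50%. IKZF1 still held most of it, at 68.4 ± 0.57% and 63.7 ± 0.38%, and IKZF5 held 24.5 ± 0.64% and 19.7 ± 0.52%. The share of IKZF4 was 3.18 ± 0.17% and 2.83 ± 0.41%. The sum of the 5 members was 25.3 ± 0.58 FPKM in the controls and 28.8 ± 0.83 FPKM with EZH2 shRNA. The lower share of IKZF1 came beside a larger sum, since its own FPKM was 17.3 and 18.3. IKZF5 was itself lower, at 6.19 and 5.68 FPKM, beside the larger sum.

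**Figure D2:**
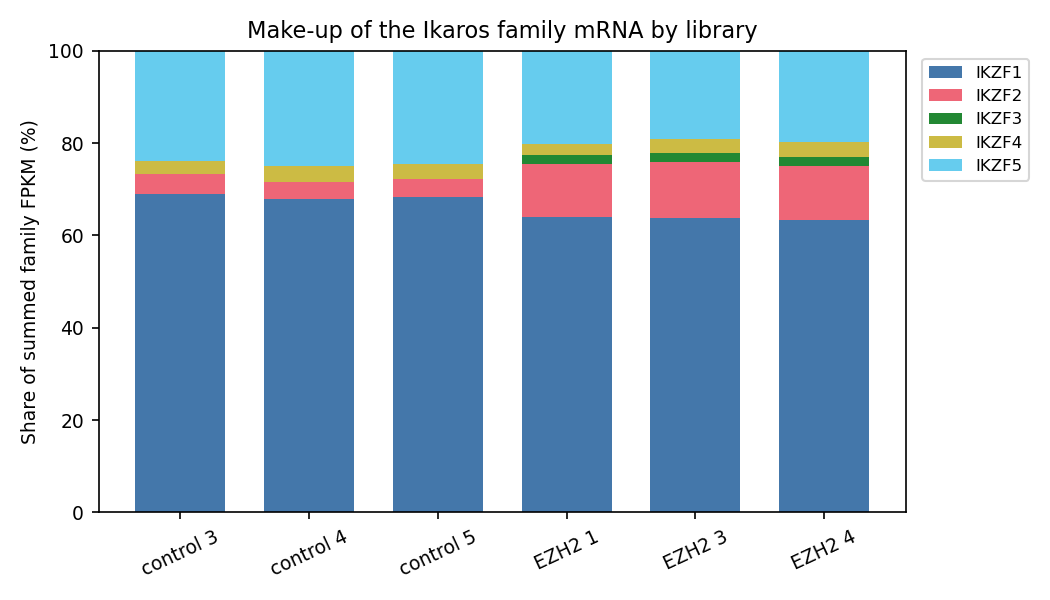
Share (%) of each Ikaros family gene in the summed FPKM of the 5 genes, as 1 stacked bar per library. IKZF1 takes between 63.3% and 69% of every bar, IKZF2 grows from about 3.97% to 11.8%, and IKZF3 becomes visible, at about 2.01%, in the EZH2 shRNA libraries.

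IKZF3 lies in a gene-dense stretch of chromosome 17, and 23 tested genes lay within 500 kb of it. Of these 15 rose, 1 fell and 7 did not pass (edgeR quasi-likelihood test, adjusted over all genes), with a median log2 fold change of 0.33. That is 65.2% higher, against 39.9% of tested chromosome 17 genes, where 9.39% were lower. Genes of chromosome 17 were higher as a whole, with a median of 0.15. With chromosome medians removed 10 neighbours were higher and 5 lower, with a median of 0.18. In that setting 7466 of the 16859 genes tested were called, of which 3982 were higher and the rest lower. The higher ones were 23.6% of all genes tested. The fold change of each neighbour was far below that of IKZF3.

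The tested neighbours nearest to the start of IKZF3 were GSDMB, a gasdermin, and ORMDL3, a regulator of sphingolipid synthesis. GSDMB went from 2.45, 2.97 and 3.75 CPM to 6.61, 8.73 and 7.27 CPM, a log2 fold change of 1.30 with an SE of 0.15 (edgeR adjusted p = 2.72e-06). ORMDL3 went from 24.3 ± 0.87 to 36.1 ± 0.72 CPM (0.57, SE 0.05, edgeR adjusted p = 1.91e-07). Both were higher in 3 of 3 EZH2 shRNA libraries than in any control. Beyond them PSMD3, a proteasome subunit gene, rose by 0.49 and the nuclear receptor genes NR1D1, THRA and RARA (retinoic acid receptor alpha) by 0.71, 0.25 and 0.80. RAPGEFL1 rose by 0.87, MED24 of the Mediator complex by 0.33, MSL1 by 0.21 and CASC3 of the exon junction complex by 0.16. THRA, MSL1 and CASC3 no longer passed with the chromosome median removed (adjusted p = 0.163, 0.294 and 0.839). CDC6 (-0.10), WIPF2 (-0.07) and AC080112.1 (0.08) did not pass. CDC6, the replication licensing gene, passed as lower with median-ratio or library-size scaling (adjusted p = 0.0464 and 0.0273) and without EZH2 library 1 (0.0107). With the chromosome median removed CDC6 was at -0.25 and WIPF2 at -0.22, both called lower (edgeR adjusted p = 0.00012 and 0.00296).

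Past the other end of IKZF3 PNMT, which makes adrenaline, had 1, 3 and 2 counts with control shRNA and 15, 25 and 25 with EZH2 shRNA. The ratio was 7.71 (counting interval 3.36 to 21.8, edgeR adjusted p = 0.000326). PNMT, like IKZF3, passed the expression filter through the EZH2 shRNA libraries alone, and silent genes of the stretch that failed the filter are not among the 23. PGAP3 and MIEN1 rose by 0.66 and 0.57, the non-coding RNA AC009283.1 by 0.42 and the muscle gene TCAP by 0.70. TCAP lost its call without control library 4 (adjusted p = 0.135) or 5 (0.0781) and without EZH2 library 1 (0.0575) or 3 (0.0583). TCAP and AC009283.1 also missed the threshold with the chromosome median removed (0.0751 and 0.0864). MED1 of the Mediator complex fell by 0.16, and the receptor gene ERBB2 (-0.06), CDK12 (-0.03), STARD3 (0.06) and FBXL20 (0.02) did not pass. With the chromosome median removed CDK12 at -0.18 and FBXL20 at -0.13 were called lower (edgeR adjusted p = 0.00227 and 0.0387), and STARD3 was at -0.094 (0.0971). PGAP3 and MIEN1 overlap ERBB2 on the other strand, and THRA overlaps MED24 and NR1D1, so their reads may be mixed.

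**Figure D3:**
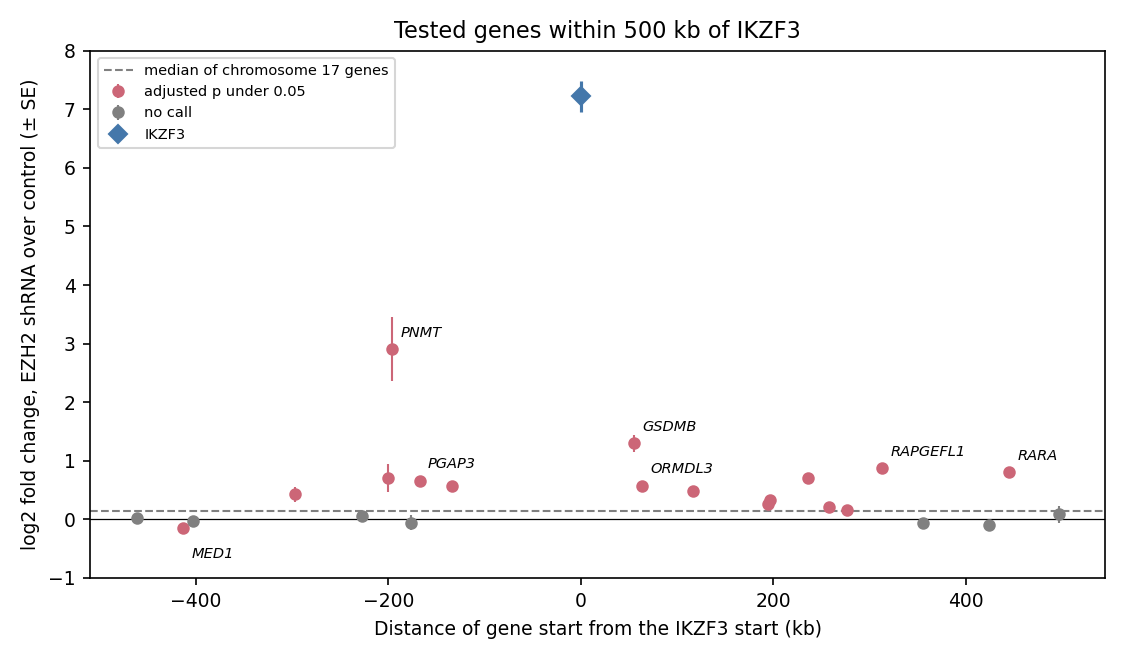
log2 fold change (EZH2 shRNA over control, ± SE) of the 23 tested genes within 500 kb of IKZF3, by the distance in kb from the IKZF3 start to each gene's start, with positive distances toward higher coordinates. IKZF3 (blue diamond) is at 7.22, PNMT at 2.91 and GSDMB at 1.30, and the dashed line marks the chromosome 17 median of 0.15.

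The 5 genes whose profile over the 6 libraries was most like that of IKZF3, by the root mean square difference of log2 CPM centred on each gene's mean, were CLC, IL5RA, SCG2, AC139491.2 and SLC1A1. CLC, the eosinophil crystal protein gene, differed by 0.26 and went from 1.08 ± 0.10 to 86.5 ± 9.75 CPM. IL5RA, the interleukin 5 receptor chain of eosinophils, differed by 0.38, and SCG2, a secretory granule protein gene, by 0.43. AC139491.2 (0.50) had 1 control count and 341 EZH2 shRNA counts, or 242.8 times as much (43.3 to 9618 by counting error). SLC1A1 (0.51), a glutamate transporter gene, had 3 and 617 counts, or 146.4 times as much (49.9 to 712.1). AC139491.2 overlaps AC139493.2, and SLC1A1 overlaps SPATA6L. The log2 CPM used here carried a prior count of 2, which shrinks differences at low counts, so the order may depend on it. IKZF3 had a fitted log2 fold change of 7.22. That of CLC was 6.33, of IL5RA 6.39, of SCG2 5.87, of AC139491.2 7.56 and of SLC1A1 7.08. AC139491.2 and SLC1A1, like IKZF3, passed the expression filter through the EZH2 shRNA libraries alone. All 5 genes were chosen for their likeness to IKZF3, so their large ratios follow from that choice. The 5 genes share libraries and group difference with IKZF3, so their likeness describes these 6 libraries.

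Other lymphoid regulators moved in both directions. Of 26 lymphoid transcription factor genes 17 were tested, of which 7 rose, 3 fell and 7 did not pass, with a median log2 fold change of 0.11 (over all genes 23.8% higher, 22.9% lower and a median of 0.01). Of those 10 calls, PRDM1 (1.18) was lost under 9 of the 16 alternatives, TCF3 (0.16) under 6 and EOMES (-0.60) under 5. PAX5, the B cell commitment factor, rose from 17.3 ± 1.18 to 36.8 ± 1.70 CPM (1.09, edgeR adjusted p = 6.54e-10) and LEF1 rose by 0.39 (7.46e-06). GATA3, the T cell factor, had 0 counts in all controls and 12, 13 and 35 counts with EZH2 shRNA, which is at least 14.2-fold higher against the floor of 3 counts over the control group (edgeR adjusted p = 8.55e-05). Like TRPS1 below, GATA3 entered the test through the EZH2 shRNA libraries alone and could only be called higher. RUNX3 fell by 0.71 (1.61e-07). EBF1, IRF8, POU2AF1 and TBX21 were among the listed genes with 0 counts in all 6 libraries. TRPS1, which carries the same kind of carboxyl-terminal fingers as the Ikaros family, had 0 control counts and 17, 39 and 36 counts with EZH2 shRNA. It was at least 21.8-fold higher (edgeR adjusted p = 1.8e-05), a call that ended on log2(FPKM + 1) (adjusted p = 0.0641). Its highest level, 0.728 CPM, was well below that of IKZF3.

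Markers of B cells and of T cells were in part at 0 and in part expressed beside the higher IKZF3. Of 25 B cell genes 11 had 0 counts in every library, among them MS4A1, CD79B, BLNK and RAG2. Only 6 were tested, and 1 rose and 1 fell. Over all genes tested, 23.8% were higher and 22.9% lower, for comparison with this list and the next. CD79A was at 0.524 CPM in the controls and 0.854 CPM with EZH2 shRNA and did not pass (edgeR adjusted p = 0.067). IGLL1, the surrogate light chain gene, rose from 39.8 ± 2.93 to 124.7 ± 9.15 CPM (1.64, edgeR adjusted p = 1.35e-10) and BTK fell by 0.29 (6.69e-06). The summed level of the list was 210.5 to 214.7 CPM in the controls and 259.6 to 273.8 CPM with EZH2 shRNA. BTK, at 161.0 CPM in the controls and 131.3 CPM with EZH2 shRNA, and IGLL1 made up most of that sum. The sum therefore says little about the other genes of the list. Of 28 T and NK cell genes 8 had 0 counts throughout, CD3G and CD5 among them, and of 6 tested 2 rose and 2 fell. The others had counts but failed the filter. Of these IL2RB, CD8A and ZAP70 went from 0.085, 0.092 and 0.025 CPM to 0.286, 0.257 and 0.126 CPM with EZH2 shRNA. PRF1, LCK and IL2RA went the other way, from 0.079, 0.058 and 0.024 CPM to 0.026, 0.026 and 0 CPM. CD247 and CCR7 rose by 1.09 and 0.58 (edgeR adjusted p = 1.66e-06 and 0.001), and CD4 and GZMA fell by 0.65 each (1.88e-08 and 0.00949). CD4, which myeloid cells also express, was at 47.8 CPM in the controls and 30.5 CPM with EZH2 shRNA. The summed level of that list was 68.6 to 73.2 CPM in the controls and 57.5 to 60.6 CPM with EZH2 shRNA. The medians of the 6 tested genes were 0.11 and 0.19, against 0.01 over all genes.

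Partners through which Ikaros proteins act changed by small amounts in both directions. All 17 genes of NuRD and of the SIN3 and CTBP corepressors were tested, and 7 rose, 5 fell and 5 did not pass, with a median of 0.05 (over all genes 23.8% higher, 22.9% lower and a median of 0.01). On log2(FPKM + 1) without the expression filter 4 were higher. The NuRD subunit gene MTA1 rose by 0.31 and MTA2 fell by 0.32 (edgeR adjusted p = 3.88e-05 and 3.89e-06), while SIN3B rose by 0.39 and SIN3A fell by 0.25 (1.35e-05 and 4.52e-05). MTA2 did not pass with the median of its chromosome removed (adjusted p = 0.347). The catalytic subunit genes CHD4 and HDAC1 were at 0.22 and -0.17. SIN3B had the largest of the 12 changes that passed.

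The cereblon ligase genes also changed by small amounts, 2 up and 3 down (over all genes 23.8% higher and 22.9% lower). CRBN, the receptor that binds lenalidomide, rose by 0.22 from 26.1 ± 0.22 to 30.4 ± 1.64 CPM (edgeR adjusted p = 0.00352), and the scaffold gene CUL4A by 0.14 (0.0057). The adaptor gene DDB1 fell by 0.20, CUL4B by 0.29 and RBX1 by 0.15 (edgeR adjusted p = 0.000456, 0.000519 and 0.013). DDB1 and CUL4A changed sign with chromosome medians removed, to 0.07 and -0.06 (adjusted p = 0.195 and 0.185). RBX1 did not pass without control library 4 (adjusted p = 0.0663) or EZH2 library 4 (0.0544).

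Among Notch pathway target genes, a group that Ikaros is known to repress in thymocytes, 5 of 9 were tested, and 3 rose and 0 fell, with a median of 0.38 (over all genes 23.8% higher, 22.9% lower and a median of 0.01). HES1, a transcriptional repressor, went from 0.380, 0.173 and 0.259 CPM to 3.05, 2.86 and 3.65 CPM, a log2 fold change of 3.598 with an SE of 0.24 (edgeR adjusted p = 3.74e-09). NOTCH3 rose by 1.14 and NRARP by 0.38 (0.000438 and 0.000914). NOTCH1 (-0.03) and HES4 (-0.00034) did not pass, though NOTCH1 passed as lower without EZH2 library 3 (-0.14, adjusted p = 0.0388). PTCRA, DTX1 and HEY2 had 0 counts in every library. HEY1 failed the filter, with 5 counts over the controls and 38 over the EZH2 shRNA libraries. HES1 was thus higher in 3 of 3 EZH2 shRNA libraries than in any control.

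**Figure D4:**
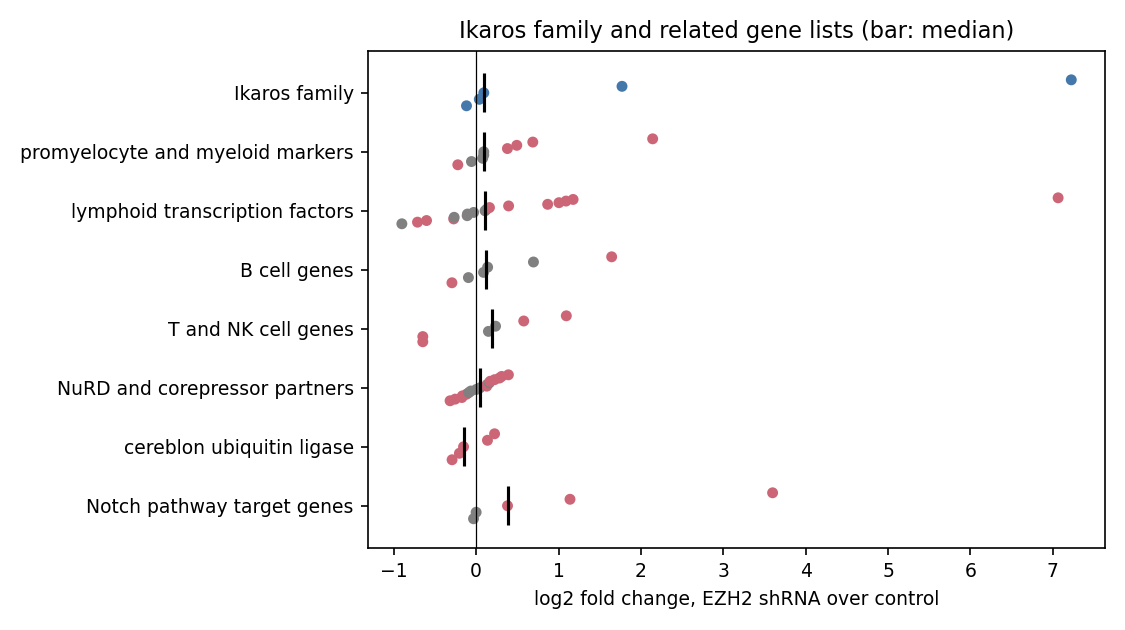
log2 fold change (EZH2 shRNA over control) of each tested gene of the Ikaros family (blue) and of 7 related lists, with 1 point per gene, red where the adjusted p was under 0.05 and grey otherwise, and a bar at the list median. The family and most lists center near 0 with single genes far to the right; the point at 7.06 is GATA3, whose control counts are all 0.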

How the data were processed

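RNA of 6 HL-60 samples was measured by sequencing. The authors deposited raw counts per gene and FPKM values, with 1 column per library. GRCh38, DESeq2 1.24.0, STAR 2.5.2b, R 3.6.1 and Picard 2.18.24 appear in the submitters' processing notes without role or order, and the counting program is not given in the sources used here. Counts divided by the deposited FPKM and by size factors gave a whole-number gene length, within 0.001, for 29060 of 29060 genes with a value, so FPKM is the same measurement rescaled.

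Of 58884 genes, 16859 passed filterByExpr and were tested with the quasi-likelihood test of edgeR 4.0.16 (R 4.3.3, TMM scaling, robust, group as the only term) with Benjamini-Hochberg adjustment over all of them at 0.05. CPM uses TMM-scaled library sizes of the tested genes. SE is the fold change over the root of its F statistic. Likeness used log2 CPM with a prior count of 2. No 2 libraries of a group agreed within sampling noise (chi-square over its degrees of freedom 3.02 to 15.9). Recovery of known changes was tested on simulated counts.

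The members, the gene lists and the tests were chosen with earlier results of these data known. Named were the members, EZH2, the cereblon ligase genes, up to 4 called genes per other list with the smallest p, tested genes within 500 kb of IKZF3, genes overlapping members, and the 5 genes most like IKZF3. MPO, ELANE, CTSG, CHD4, HDAC1, NOTCH1, HES4 and TCF3, PRDM1, EOMES, CD79A, BCL11A, CTBP1, RBBP7, GATAD2A, MBD3 and genes at or near 0 were named after their values were seen. Alternatives were other scalings and filters, DESeq2 1.42.0, limma 3.58.1 on log2 FPKM with a pseudocount of 1 or 0.1, a block by title number, chromosome medians removed (taken over genes above a mean log2 CPM of 2), and leaving out each library.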

Additional observations from a re-analysis of the deposited data

How the results depend on the processing

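IKZF3 and IKZF2 were higher under all 16 alternatives. On log2(FPKM + 1), with or without the expression filter, IKZF3 was at 0.65 and IKZF2 at 1.13, and on log2(FPKM + 0.1) IKZF3 was at 2.71. A pseudocount understates the change of weakly expressed genes by construction. Leaving out 1 library at a time gave 7.01 to 7.79 for IKZF3, with 7.79 without control library 4. With chromosome medians removed IKZF2 was at 2.07 and IKZF1 at 0.046, and of the named and listed genes that had been called BCL11A, DDB1 and CUL4A turned sign (0.023, 0.066 and -0.063); of the IKZF3 neighbours not called, FBXL20, STARD3 and AC080112.1 did (-0.13, -0.094 and -0.065). The number of genes called lay between 6200 and 8122, against 7866, and that of higher IKZF3 neighbours between 10 and 15, with 1 to 5 lower. Nothing in the labels says that equal title numbers pair libraries. The deviations of same-numbered libraries had correlations of 0.107 (number 3) and 0.119 (number 4). Those of differently numbered libraries ran from -0.141 (control 3 and EZH2 4) to 0.053 (control 5 and EZH2 1). The largest in size was thus between libraries of different number. With a replicate block by that number 7721 genes were called, IKZF3 was at 7.01 and IKZF4 at 0.17, 13 neighbours were higher, and CTBP1, AC009283.1 and TCAP lost their calls (adjusted p = 0.0703, 0.0642 and 0.0513). Depth limits IKZF3 in the controls, where no library exceeded the floor of 3 counts.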

Other observations

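The surroundings of the other members were looked at after the values around IKZF3 had been seen. IKZF2 has only 2 tested neighbours within 500 kb. SPAG16, a sperm axoneme gene, fell by 1.09 (edgeR adjusted p = 0.000219), and AC079610.2, a non-coding RNA whose start lies 0.543 kb from that of IKZF2 on the other strand, was at 0.74 with an SE of 0.47 and did not pass. IKZF2 was thus higher beside a neighbour that fell. Near IKZF1 the growth factor receptor adaptor gene GRB10 rose by 0.41 and FIGNL1 fell by 0.20 (edgeR adjusted p = 1.4e-07 and 0.000986). ACADSB, an acyl-CoA dehydrogenase gene that starts 0.162 kb from IKZF5 on the other strand, rose by 0.51 (edgeR adjusted p = 3.85e-06), while IKZF5 was at -0.12. Around IKZF5, 3 of 7 tested neighbours rose, ACADSB among them, and 1 fell, with a median of 0.28. Around IKZF4, 11 of 40 tested neighbours rose and 12 fell, with a median of 0.0046. Over all genes 23.8% were higher and 22.9% lower.

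The 5 genes most like IKZF2 over the 6 libraries were also named after its values were seen. They were GATA2, BAIAP2-DT, UBXN10, HEG1 and CLSTN3, with root mean square differences of 0.05, 0.06, 0.06, 0.08 and 0.08 on the log2 scale. GATA2, a transcription factor of blood stem cells, mast cells and eosinophil precursors, went from 122.5 ± 1.58 to 435.4 ± 12.2 CPM.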
